A study of Mus musculus with 11 samples.

Results

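*Ptprj*, *Fgfr2*, *Ccl28*, *Arl14ep* and *Gpr151* headed a ranking of 21938 mouse protein-coding genes by the number of chromatin intervals that were accessible in both NKT and both ILCP libraries and in no CD4SP or CLP library. Such intervals are called shared here. Each of the 5 genes was taken as its mm10 gene body in the GENCODE M21 annotation with 20 kb added on each side, and this stretch is called its window. The 5 windows held 167 of the 71400 intervals and 12 of the 432 shared intervals. *Ptprj* and *Fgfr2* held 3 shared intervals each, more than any other gene. A further 17 genes held 2, and *Gpr151*, *Arl14ep* and *Ccl28* were those with the shortest gene bodies, of 1772, 11898 and 30541 bp. Outside this choice, *Cemip2* (80019 bp) and *Ptprb* (114013 bp) also held 2 each. Over all genes, 1.75% held at least 1 shared interval and 0.0866% at least 2. The genes were chosen by these counts, which are given as a description and were not tested.

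Open DNA was mapped with ATAC-seq, which inserts sequencing adapters into accessible chromatin by a transposase, in thymocytes and bone marrow cells of C57BL/6 mice aged 4 to 8 weeks. The thymus gave CD4SP thymocytes, conventional CD4 single positive T cells (2 libraries), and NKT thymocytes, innate-like T cells that recognise lipids on CD1d (2 libraries). The bone marrow gave CLP, the common lymphoid precursors sorted as lineage-negative cells with IL-7Rα, intermediate cKit and Sca-1 and high Flt3 (3 libraries), and ILCP, the innate lymphoid cell precursors sorted as lineage-negative cells with IL-7Rα, α4β7 and eGFP (2 libraries). NKT and ILCP both express *Zbtb16*, and the study set NKT against CD4SP and ILCP against CLP. The study's mice include a *Zbtb16* eGFP reporter strain, which the methods do not tie to these libraries by name, while the labels give only C57BL/6 as the strain of every library and name no deletion or treatment. Cell type and tissue cannot be told apart where NKT is set against ILCP.

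Open chromatin marks stretches of DNA that proteins can reach, mostly promoters at gene starts and enhancers that may lie in introns or far from a gene. Distal enhancers differ more between cell types than promoters do, and the gene nearest to one is not always the gene it acts on. The 5 genes have no common pathway. *Ptprj* encodes CD148, a receptor-type tyrosine phosphatase of blood cells that acts on Src family kinases. *Fgfr2* encodes a receptor tyrosine kinase for fibroblast growth factors, best known from epithelia and the skeleton. *Ccl28* encodes a mucosal chemokine whose receptors are *Ccr10* and *Ccr3*. *Arl14ep* encodes an effector of the small GTPase Arl14, which it links to the motor protein Myo1e, and *Gpr151* encodes an orphan G protein-coupled receptor known from neurons.

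The 9 libraries held from 19343 peaks (CLP replicate 1) to 41535 (CLP replicate 2), with 33648 and 37909 in CD4SP, 34701 and 38793 in NKT and 26328 and 25771 in ILCP. The study's methods give 1 range of read numbers for its libraries as a whole and not the number of each, so depth per library is unknown and a missing peak says only that none was called. The score of a peak is given below as its upper percent, meaning its rank from the highest score of its own library in percent of that library's peaks, ties averaged, so that a low value marks a high score. Start sites of the T cell receptor complex genes *Cd3e*, *Cd3d* and *Cd3g* were open in all CD4SP and NKT libraries and in no CLP or ILCP library, and *Zbtb16* was open in both NKT, both ILCP and 1 CLP library. The other T cell markers were also open outside the thymus, *Cd4* in both ILCP, *Cd5* in all 3 CLP and *Bcl11b* in 2 CLP and both ILCP libraries. Of the other NKT and ILCP markers, *Tbx21* was open in 1 NKT library, *Il2rb* in both CD4SP and both NKT libraries, *Klrb1c* and *Id2* in no library and *Tcf7* in the 2 CD4SP libraries alone, while *Gata3*, *Itga4*, *Tox* and *Egr2* were open in all 9. Of the CLP markers, *Rag1* was open in the 3 CLP libraries alone and *Flt3* in all CLP and ILCP libraries and in no thymic library. *Kit* was open in all CLP, both ILCP and 1 NKT library and *Ly6d* in 1 CLP library, whereas *Dntt* and *Il7r* were open in all CLP, CD4SP and NKT libraries and 1 ILCP library. Of the listed markers of other lineages, *Pax5*, *Spi1*, *Gata1* and *Klf1* were open in no library at their start sites, whereas *Csf1r* was open in 1, *Cebpa* in 8 and *Ebf1* in all 9.

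The central 200 bp of each shared interval were searched on both strands for TGTGGT, the letters bound by Runx factors, because the study concerned Runx1 at *Zbtb16*. The letters occurred in 5 of the 12 shared intervals at the 5 genes (41.7%), in 209 of all 432 shared intervals (48.4%) and in 17926 of 71396 intervals (25.1%). A match is a description and not a binding site. The stretches below are shown because they carry these letters in 3 different settings, an intron of *Ptprj*, an intron of *Ate1* inside the *Fgfr2* window and the upstream side of *Arl14ep*. They lie at chr2:90464013-90464212, chr7:130415930-130416129 and chr2:106985021-106985220 of mm10 (GRCm38.p6), and are written 5′ to 3′ on the plus strand with TGTGGT, read there from the other strand as ACCACA, in capitals.
Ptprj intron 6: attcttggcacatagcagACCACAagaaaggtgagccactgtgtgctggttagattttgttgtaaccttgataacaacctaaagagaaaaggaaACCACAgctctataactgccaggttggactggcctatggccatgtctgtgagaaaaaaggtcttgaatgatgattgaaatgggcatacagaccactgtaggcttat
Ate1 intron 11: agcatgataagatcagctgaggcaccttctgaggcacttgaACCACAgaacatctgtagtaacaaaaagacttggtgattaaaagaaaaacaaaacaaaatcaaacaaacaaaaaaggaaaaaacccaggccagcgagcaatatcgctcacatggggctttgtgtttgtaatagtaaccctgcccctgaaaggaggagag
Arl14ep upstream: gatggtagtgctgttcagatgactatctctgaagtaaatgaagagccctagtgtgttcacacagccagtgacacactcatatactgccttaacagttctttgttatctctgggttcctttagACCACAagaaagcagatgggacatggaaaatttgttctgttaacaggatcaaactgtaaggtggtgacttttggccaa
The *Ptprj* stretch carried the letters 2 times, at bases 19 to 24 and 95 to 100, and the other stretches 1 time each, at bases 42 to 47 and 123 to 128. The second *Ccl28* interval and the interval nearer to *Gpr151* also held them 1 time each.

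Among the other motifs, CTTTGA, the letters of TCF factors, occurred in 4 of the 12 intervals (33.3%), against 39.4% of all shared intervals and 16.6% of all intervals. It was found 2 times in the interval farther from *Gpr151* and 1 time in each of the *Ptprj* intervals of intron 1. GGAAG, the core of ETS sites, occurred in 7 of the 12 (58.3%), against 49.1% of the shared and 62.5% of all intervals. The letters of GATA factors, AGATAA, occurred in 2 of the 12 (16.7%), against 19.7% and 9.72%. GGTGTGA, a T-box site, occurred in 1, the *Ptprj* interval nearest to the start site, against 4.40% and 3.01%. TGCGGT, the other form of the Runx letters, occurred in none of the 12, against 4.63% of shared and 4.33% of all intervals. Each E-box form, CAGCTG and CACCTG, occurred in 2 of the 12 (16.7%), against 14.2% and 15.6% of all intervals. TGANTCA, an AP-1 site, occurred in 2 of 12 against 6.82% of all intervals, and AGGTCA, an ROR site, in 1 against 11.3%. In the 3 printed stretches no motif overlapped another. The GC content of the 12 stretches had a median of 45.8%, against 46.0% over all shared and 49.5% over all intervals.

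The share of shared intervals was lowest at *Fgfr2* among the 5 genes. They made up 3 of 24 intervals at *Ptprj* (12.5%), 2 of 7 at *Ccl28* (28.6%), 2 of 6 at *Arl14ep* (33.3%) and 2 of 5 at *Gpr151*, against 0.605% of all intervals. At *Fgfr2* they made up 3 of 125 (2.40%), in a window of 3000900 bp. The genes were chosen by their shared intervals, and those tied at 2 by the shortest bodies. High shares were thus fixed in part by the choice and are given as a description. None of the 12 lay within 1 kb of a protein-coding start site, against 6 of the 432 shared intervals and 19.0% of all intervals. By place, 4 lay in an intron of the gene itself, 1 in an exon, 3 in introns of other genes and 4 outside the gene body.

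Peaks in the windows were counted in every library. The *Ptprj* window held 4 and 6 peaks in CD4SP, 13 and 10 in NKT, 9, 13 and 14 in CLP and 17 and 17 in ILCP. ILCP was highest there, and neither NKT and CD4SP nor ILCP and CLP overlapped. The *Fgfr2* window held 55 and 60 in CD4SP, 72 and 77 in NKT, 41, 77 and 75 in CLP and 54 and 47 in ILCP, so that CLP and ILCP overlapped. The *Ccl28* window held 2 and 2 in CD4SP, 5 and 7 in NKT, 3, 2 and 3 in CLP and 5 and 4 in ILCP. At *Arl14ep* there were 1 and 1 in CD4SP, 4 and 4 in NKT, 1, 3 and 1 in CLP and 5 and 5 in ILCP. At *Gpr151* there were 1 and 2 in CD4SP, 4 and 4 in NKT, 1, 2 and 1 in CLP and 2 and 3 in ILCP. At *Ccl28* and *Arl14ep* all NKT and ILCP libraries lay above all CD4SP and CLP libraries, while at *Gpr151* ILCP replicate 1 equalled the highest CD4SP and CLP libraries. Per 10000 peaks of the library, CLP replicate 1, the smallest library, held 1.55 at *Ccl28*, above NKT replicate 1 with 1.44, so the groups overlapped there on that scale. At *Gpr151* ILCP replicate 1 then held 0.760, above the highest CD4SP or CLP library with 0.528, and at *Ptprj* and *Arl14ep* the groups stayed apart as in the counts. The rule drew on the same peaks, and each shared interval gave every NKT and ILCP library a peak and no CD4SP or CLP library one. Part of the separation was thus fixed by the choice of the genes. How many of all genes separate in this way was not counted, and these counts were not tested.

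**Figure D1:**
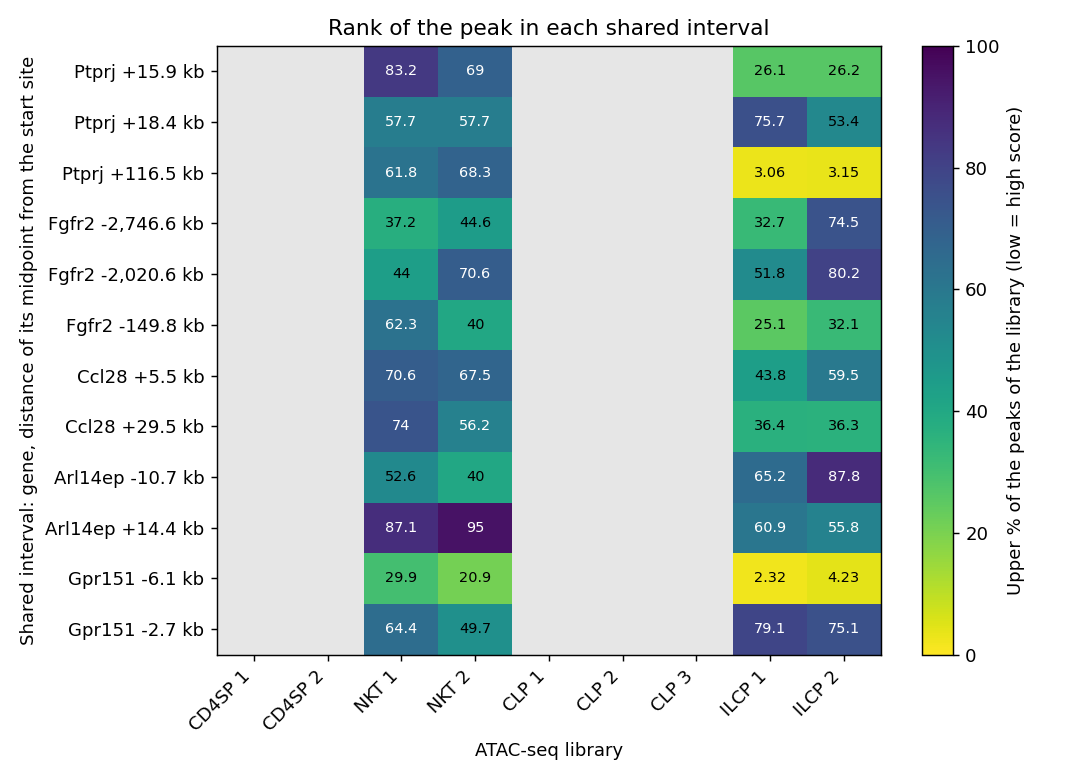
Upper percent of the peak score in each of the 12 shared intervals (rows, with the distance of the interval's midpoint from the gene's start site in kb) in each of the 9 libraries (columns), with grey where no peak was called. The lowest values, from 2.32 to 4.23, are those of the ILCP libraries at the *Ptprj* interval of +116.5 kb and the *Gpr151* interval of -6.1 kb.

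*Ptprj* (ENSMUSG00000025314.16) lies on the minus strand at chr2:90429754-90580647. Its start site was open in all 9 libraries, and 3 further intervals in its introns were also open in all 9. The first 2 shared intervals lay in intron 1, at chr2:90564235-90565161 and chr2:90561730-90562699, 15.9 and 18.4 kb from the start site and only 1535 bp apart. The third lay at chr2:90463397-90464827, 116.5 kb into the gene in intron 6, and reached over a coding exon. The start site of another annotated *Ptprj* transcript lay 7.22 kb from it. No other protein-coding gene overlapped the window, and the nearest ones, *Olfr1274-ps* (25857 bp below) and *Nup160* (96568 bp above), held 0 shared intervals.

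The third *Ptprj* interval differed most between the cell types in score. Its upper percent was 61.8 and 68.3 in the NKT libraries and 3.06 and 3.15 in the ILCP libraries. By its mean it ranked 2 of the 432 shared intervals in ILCP and 228 of 432 in NKT. The interval 15.9 kb from the start site had 83.2 and 69.0 in NKT against 26.1 and 26.2 in ILCP. In both of these intervals each ILCP library ranked the peak higher than each NKT library. The interval 18.4 kb from the start site had 57.7 and 57.7 in NKT and 75.7 and 53.4 in ILCP, and there the cell types overlapped.

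The *Ptprj* window as a whole leaned to the bone marrow. Of its 24 intervals, 11 (45.8%) were open only in bone marrow libraries and 0 only in thymic ones, against 33.6% and 27.0% of all intervals. These 11 include 4 that were open in a single library, the only such intervals of the window (16.7%, against 18.0% of all). An interval counted as specific when open in every library of a cell type and in none of the type compared with it, so each shared interval is both NKT-specific and ILCP-specific by definition. ILCP-specific intervals against CLP numbered 5 of 24 (20.8%), the 3 shared ones included, against 6.34% of all intervals. NKT-specific intervals against CD4SP numbered 3 of 24 (12.5%), against 4.30% of all, and all 3 were the shared ones. A single CLP-specific interval (4.17%, against 5.97% of all) lay 6.28 kb into intron 1, and no interval was CD4SP-specific, against 3.46% of all.

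**Figure D2:**
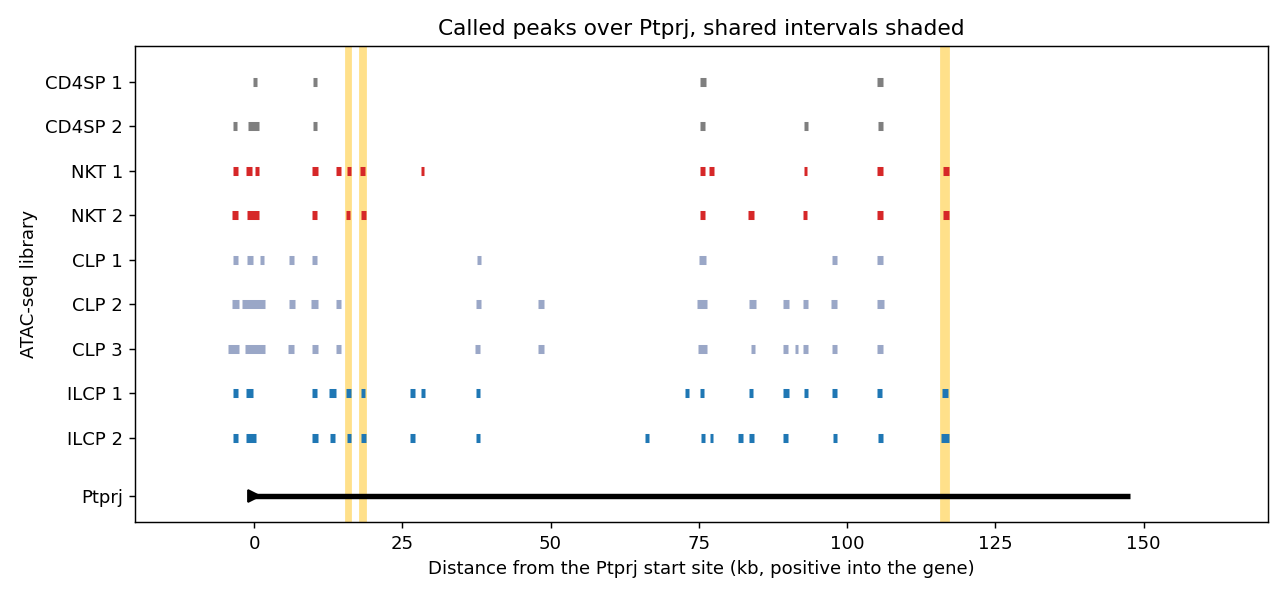
Called peaks (bars) over the *Ptprj* window in each of the 9 libraries, against the distance from the start site in kb, positive into the gene; the black line is the principal transcript, the triangle its start site, and shading marks the 3 shared intervals. The interval over the start site holds peaks in all 9 libraries, and the shaded intervals hold peaks in the 2 NKT and the 2 ILCP libraries alone.

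The *Fgfr2* count depended on the gene model. *Fgfr2* (ENSMUSG00000030849.18) lies on the minus strand and in GENCODE M21 spans chr7:130162451-133123350, a body of 2960900 bp. Of its 27 annotated transcripts, 1 reaches past the RefSeq body, through 2 exons at chr7:133081757-133081860 and chr7:133123141-133123350. These exons lie at least 2815493 bp upstream of the other transcripts, inside the *Ctbp2* gene. The RefSeq body is chr7:130162451-130266808, or 104358 bp. With the same 20 kb on each side, the RefSeq window held 2 intervals, of which 0 were shared; this alternative was chosen after seeing the data.

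Each of the 3 shared intervals in the GENCODE window lay in an intron of another gene. The first, at chr7:130415285-130416774, lay in intron 11 of *Ate1*, which encodes arginyltransferase, 149.8 kb upstream of the principal *Fgfr2* start site. The second, at chr7:132286304-132287344, lay in intron 1 of *Chst15*, a chondroitin sulfotransferase gene, 2020.6 kb upstream. The third, at chr7:133012217-133013394, lay in intron 3 of *Ctbp2*, which encodes a transcriptional corepressor, 2746.6 kb upstream and 2.44 kb from a *Ctbp2* start site. For all 3 the nearest protein-coding start site was that of the host gene. In all, 30 other protein-coding genes overlapped the window, and the nearest start site was that of *Fgfr2* for 2 of the 125 intervals. The nearest genes outside it, *Wdr11* and *Tex36*, held 0 shared intervals.

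At the *Ate1* interval the upper percent was 62.3 and 40.0 in NKT and 25.1 and 32.1 in ILCP, so both ILCP libraries ranked it higher. At the *Chst15* interval it was 44.0 and 70.6 in NKT and 51.8 and 80.2 in ILCP. At the *Ctbp2* interval it was 37.2 and 44.6 in NKT and 32.7 and 74.5 in ILCP. The cell types overlapped at the *Chst15* and *Ctbp2* intervals, where the ILCP libraries differed widely from each other, as did the NKT libraries at the *Chst15* interval. A further interval in *Ate1*, at chr7:130447882-130448613, missed the shared pattern only for want of a peak in NKT replicate 1.

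Around the *Fgfr2* start itself few peaks were called. The interval over the start site, chr7:130265413-130266884, was open in CLP replicates 2 and 3 and in ILCP replicate 2. The other interval of the RefSeq window, at chr7:130273060-130273766, was open in CD4SP replicate 2, NKT replicate 2 and CLP replicate 2. Over the whole GENCODE window, 12 of 125 intervals were NKT-specific (9.60%, against 4.30% of all intervals) and 8 ILCP-specific (6.40%, against 6.34%), the 3 shared ones counted in both.

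**Figure D3:**
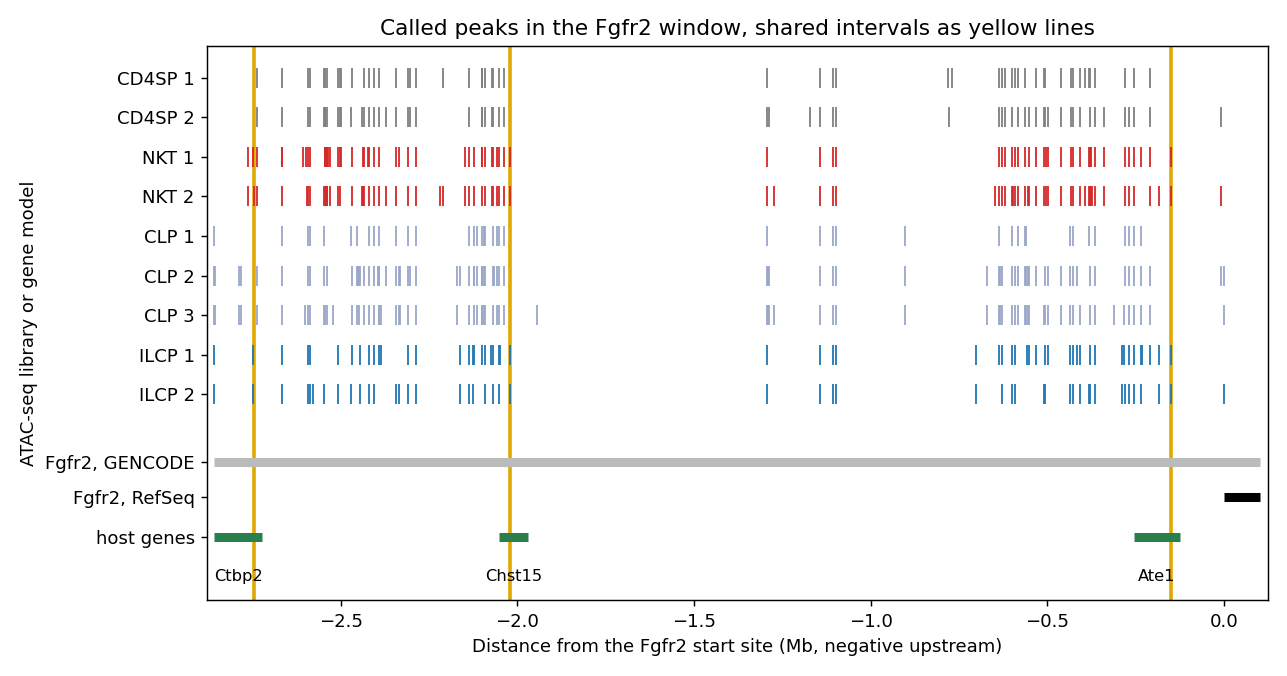
Midpoints of called peaks (ticks) in the *Fgfr2* window in each of the 9 libraries, against the distance from the principal *Fgfr2* start site in Mb, negative upstream; bars below show the GENCODE and RefSeq bodies of *Fgfr2* and the 3 host genes, and yellow lines mark the shared intervals. The 3 lines cross *Ctbp2*, *Chst15* and *Ate1* and none crosses the RefSeq body.

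*Ccl28* (ENSMUSG00000074715.3) lies on the plus strand at chr13:119623819-119654359, and no library had a peak over its start site. Both shared intervals lay inside the gene, 22995 bp apart. The first, at chr13:119628845-119629798, lay in intron 1, 5.50 kb from the start. Its upper percent was 70.6 and 67.5 in NKT and 43.8 and 59.5 in ILCP. The second, at chr13:119652794-119653822, lay in exon 3, in the 3′ untranslated region, 29.5 kb from the start. Its upper percent was 74.0 and 56.2 in NKT and 36.4 and 36.3 in ILCP. At both intervals each ILCP library ranked the peak higher than each NKT library.

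Of the other 5 intervals at *Ccl28*, 1 was open in all 9 libraries, 8.09 kb into intron 1. Farther along intron 1, 1 was open in 7 libraries, and 8.40 kb before the start 1 was open in NKT replicate 2 and CLP replicate 1. In intron 2, 25.7 kb from the start, 1 was NKT-specific and lacked a peak in all CLP and ILCP libraries too, with upper percents of 40.5 and 44.3. Beyond the end of the gene, 33.5 kb from the start, 1 was open in the 2 ILCP libraries alone, with 25.2 and 33.1. The window thus held 3 NKT-specific and 3 ILCP-specific intervals of 7 (42.9% each, against 4.30% and 6.34% of all), of which 2 each were the shared ones that the rule fixed. *Tmem267*, which encodes a transmembrane protein, overlapped the window from below. Its own window held 2 shared intervals, of which 1 was the first *Ccl28* interval, while *3110070M22Rik*, 135436 bp below, held 1 and *Hmgcs1*, a gene of sterol synthesis 36020 bp above, held 0.

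*Arl14ep* (ENSMUSG00000027122.15) lies on the minus strand at chr2:106962527-106974424. Its start site was open in all 9 libraries with upper percents from 3.30 in NKT replicate 1 to 12.0 in CD4SP replicate 2. Both shared intervals lay outside the gene body, 24007 bp apart, on either side of the gene. The upstream interval, at chr2:106984553-106985688, lay 10.7 kb before the start site, with upper percents of 52.6 and 40.0 in NKT and 65.2 and 87.8 in ILCP. Here both NKT libraries ranked the peak higher. The downstream interval, at chr2:106959532-106960545, lay 14.4 kb past the start site, with 87.1 and 95.0 in NKT and 60.9 and 55.8 in ILCP. There both ILCP libraries ranked it higher.

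Another interval farther downstream of *Arl14ep*, at chr2:106955345-106956352, was open in both NKT and both ILCP libraries and in no CD4SP library, but also in CLP replicate 2. Over the last exon, chr2:106963281-106964217 was open in the 2 ILCP libraries alone, with upper percents of 24.4 and 14.7. In this window 3 of 6 intervals were NKT-specific, against 4.30% of all intervals, and 3 of 6 ILCP-specific, against 6.34%, with the 2 shared ones that the rule fixed counted in both. The nearest protein-coding genes, *Mpped2*, 94171 bp below, and *Fshb*, which encodes the beta subunit of follicle-stimulating hormone, 81716 bp above, lay outside the window and held 1 and 0 shared intervals.

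*Gpr151* (ENSMUSG00000042816.4) lies on the minus strand at chr18:42577881-42579652, and no library had a peak over its start site or gene body. Both shared intervals lay upstream, 2062 bp apart. The nearer one, at chr18:42581513-42583095, lay 2.65 kb before the start, with upper percents of 64.4 and 49.7 in NKT and 79.1 and 75.1 in ILCP. Both NKT libraries ranked it higher, but the highest-scoring peaks of the 4 libraries had only 7 bp in common. The farther one, at chr18:42585158-42586322, lay 6.09 kb before the start, with 29.9 and 20.9 in NKT and 2.32 and 4.23 in ILCP. It ranked 4 of the 432 shared intervals in ILCP and 21 in NKT, the highest in NKT among the 12, and its 4 peaks had 925 bp in common.

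The remaining 3 intervals at *Gpr151* lay farther upstream. The one at 10038 bp was open in 8 libraries and lacked a peak in ILCP replicate 1. The others were open in 1 and in 2 libraries. *Ppp2r2b*, a phosphatase subunit gene 57780 bp above, held 0 shared intervals, as did *Pou4f3*, 180632 bp below.

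**Figure D4:**
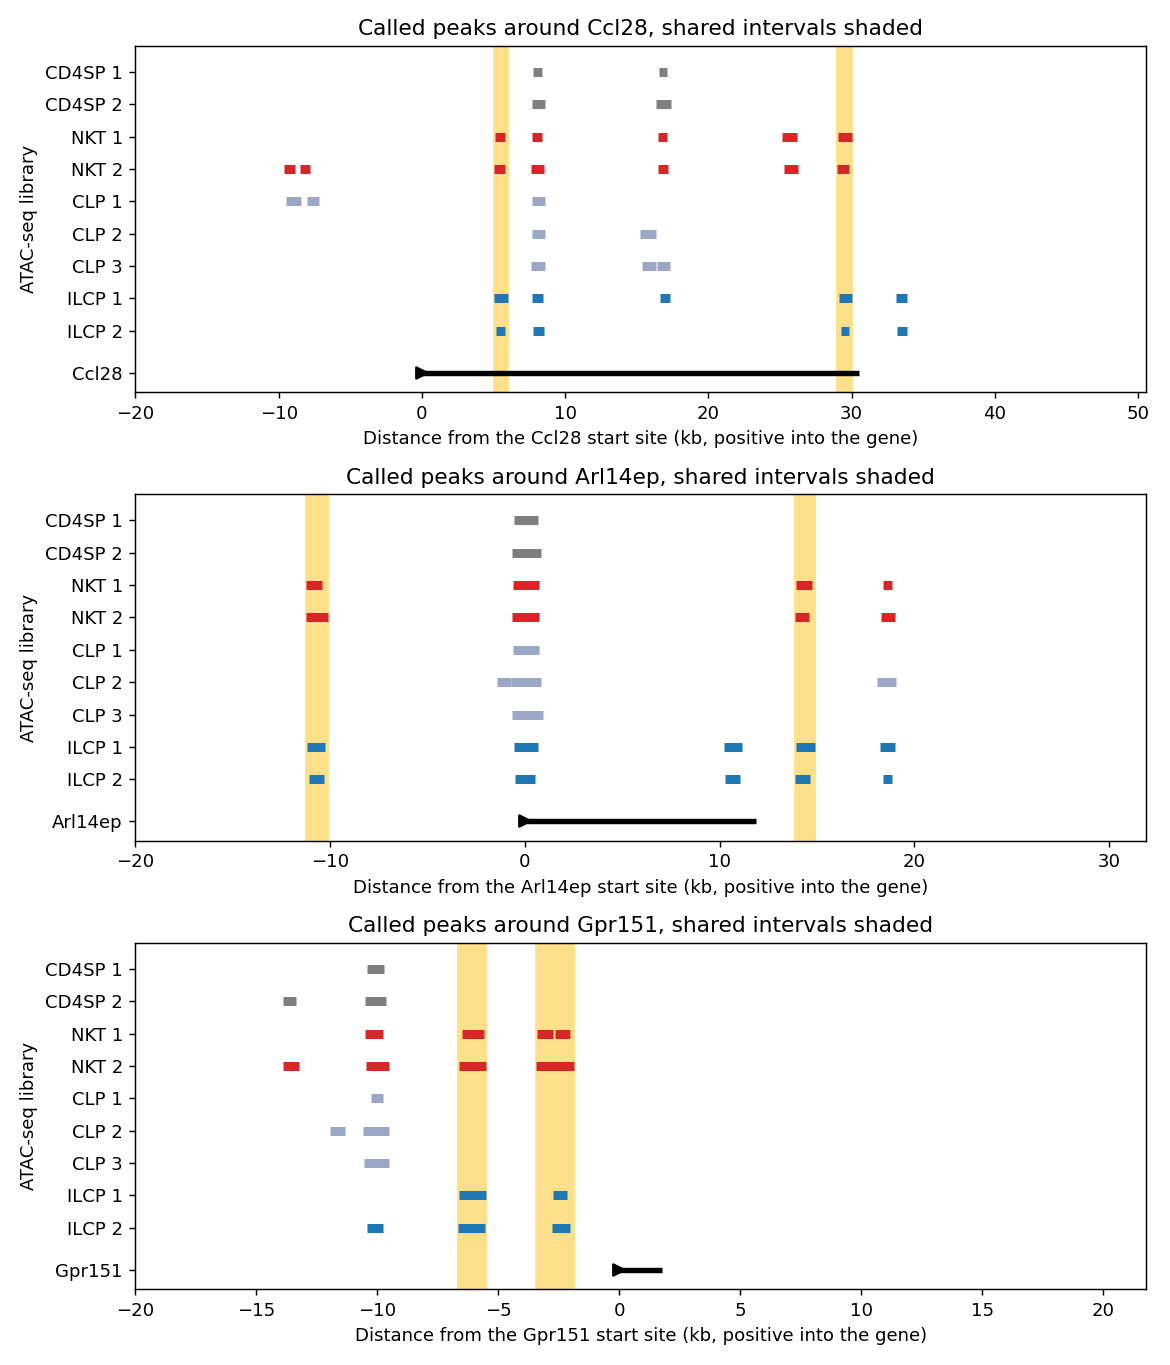
Called peaks (bars) around *Ccl28*, *Arl14ep* and *Gpr151* in each of the 9 libraries, against the distance from each start site in kb, positive into the gene; black lines are the principal transcripts with a triangle at the start, and shading marks the shared intervals. Peaks at the start site are seen at *Arl14ep* alone, and the 2 shaded intervals lie inside *Ccl28*, on either side of *Arl14ep* and upstream of *Gpr151*.

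The rule used the presence of peaks and not their scores, so the scores of the shared intervals were compared between NKT and ILCP. At *Ptprj* the mean upper percent over the 3 intervals was 66.3 ± 1.82 in NKT (SD, n = 2) and 31.3 ± 5.22 in ILCP (SD, n = 2). The difference of 35.0 percentage points had p = 0.333 in a two-sided exact permutation test of the library labels, and 0.833 after Benjamini-Hochberg adjustment over the 5 genes. With 2 libraries against 2, 0.333 is the smallest p this test can give, so no gene could pass 0.05. At *Ccl28* the means were 67.1 ± 7.39 and 44.0 ± 5.51 (SD, n = 2 each), a difference of 23.0 percentage points (exact permutation p = 0.333, adjusted 0.833). At these 2 genes each ILCP library lay below each NKT library.

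At the other 3 genes the difference was smaller than the SD of at least 1 of the cell types. At *Fgfr2* the means were 49.8 ± 2.77 in NKT and 49.4 ± 18.2 in ILCP, at *Arl14ep* 68.7 ± 1.64 and 67.4 ± 6.19, and at *Gpr151* 41.2 ± 8.39 and 40.2 ± 0.744 (SD, n = 2 each). The differences of 0.405, 1.25 and 1.03 percentage points each had an exact permutation p of 1 (adjusted 1). At *Arl14ep* and *Gpr151* these means average 1 interval that ranked higher in NKT and 1 that ranked higher in ILCP.

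By single intervals, both ILCP libraries ranked 7 of the 12 higher than both NKT libraries, against 55.3% of all 432 shared intervals. Both NKT libraries ranked 2 of the 12 higher, against 13.7% of all shared intervals, and 3 of the 12 overlapped. Both shares of the 12 were near these backgrounds. Over all shared intervals the NKT upper percent exceeded the ILCP one by a median of 15.3 percentage points, against 19.7 over the 12. The ILCP lists held fewer peaks than the NKT lists, and the part this played in the ranks was not tested.

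**Figure D5:**
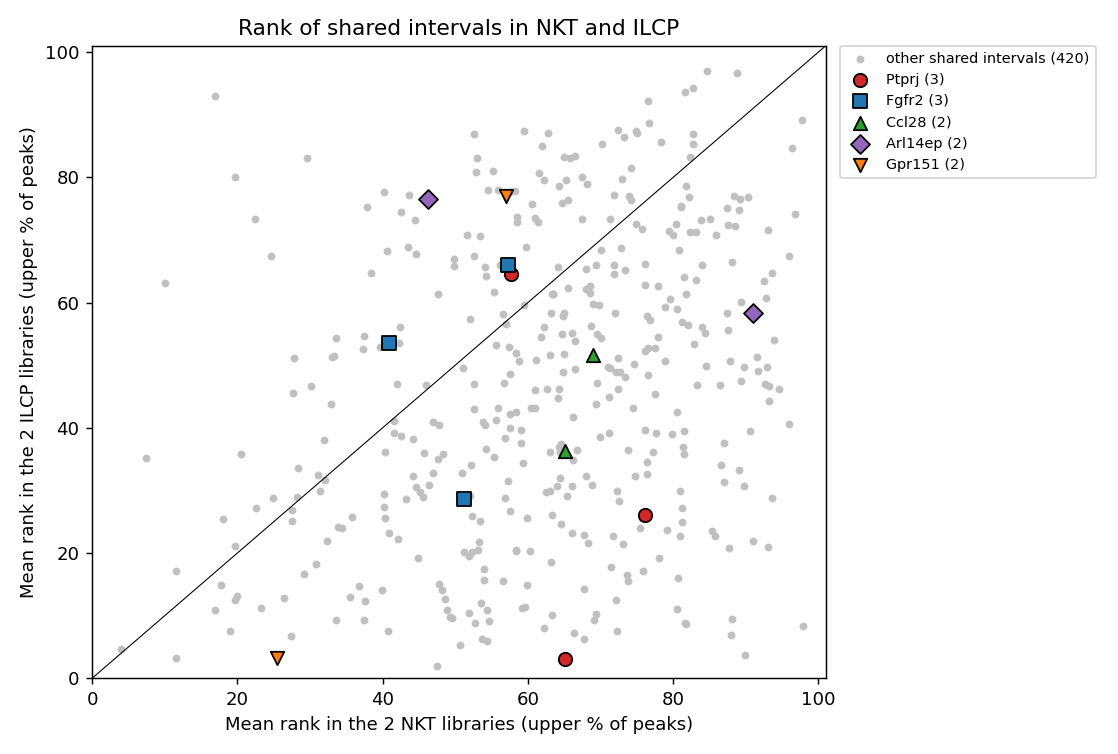
Mean upper percent of the 432 shared intervals in the 2 NKT libraries (horizontal axis) and in the 2 ILCP libraries (vertical axis), where each point is 1 interval, coloured symbols are the 5 genes and the line marks equal ranks. Of the 12 intervals 7 lie below the line, as do 321 of all 432.

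The counts of shared intervals fell when low-scoring peaks were left out. When each library was reduced to its 19343 highest-scoring peaks, the number in the smallest library, *Ptprj*, *Ccl28* and *Arl14ep* held 0 shared intervals and *Fgfr2* and *Gpr151* 1 each, and the number over the genome was 261. When the higher-scoring 50% of the peaks of each library were kept, *Gpr151* held 1 and the other 4 genes 0, with 195 over the genome.

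Relatives of the 5 genes were listed by name. Of 21 receptor-type tyrosine phosphatase genes, 20 were found in the annotation and 3 held a shared interval, against 1.75% of all protein-coding genes. These were *Ptprj* with 3, *Ptprb* with 2 and *Ptprr* with 1. ILCP-specific intervals were present at 11 of the 20, against 13.8% of all protein-coding genes, and NKT-specific ones at 5, against 11.5%. *Ptprj*, which the rule chose, is in each of these counts, and its shared intervals are specific by definition. The shares make no allowance for the length of the windows. *Ptprc*, which encodes CD45, held 0 shared intervals, 4 CD4SP-specific and 1 ILCP-specific ones. None of *Fgfr1*, *Fgfr3*, *Fgfr4* and *Fgfrl1* held a shared interval. The same was true of the *Ccl28* receptors *Ccr10* and *Ccr3* and of their other ligands *Ccl27a*, *Ccl11*, *Ccl24* and *Ccl5*, although *Ccr10* held 1 NKT-specific interval and *Ccl27a* and *Ccl5* 1 ILCP-specific interval each. *Arl14* and *Myo1e*, the partners of *Arl14ep*, held 0 shared intervals, with 1 ILCP-specific interval at *Arl14* and 3 NKT-specific ones at *Myo1e*. *Arl14epl* and the galanin receptor genes *Galr1*, *Galr2* and *Galr3*, relatives of *Gpr151*, held 0 shared intervals.

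The genes most like each of the 5 were found by summing, over the 9 libraries, the absolute difference in the number of peaks in the window. *Mapre2* (sum 17) was nearest to *Ptprj*. *Per3* (4) and *Agpat5* (5) were nearest to *Ccl28*, *Sec23a* and *Cdh10* (5 each) to *Arl14ep*, and *Mx1* and *Tmem229b* (3 each, tied with 2 others) to *Gpr151*. No gene came near *Fgfr2*, whose closest, *Pde4d* and *Nav2*, differed by 316 and 332 peaks. Of these genes, *Nav2*, *Agpat5*, *Cdh10* and *Tmem229b* held 1 shared interval each and *Mapre2*, *Pde4d*, *Per3*, *Sec23a* and *Mx1* 0.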

How the data were processed

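The authors aligned ATAC-seq reads of 50 bp to mm10 with bowtie, allowing 2 mismatches, and MACS peaks were called separately per library. The MACS version and settings, duplicate removal and any shift of read ends are not given in the sources used here, and the submitters' processing notes also name Picard without a role and HOMER, which the study's methods give for the ChIP-seq signal tracks. The deposited lists hold the position and the score of each peak as the peak caller wrote it, with no read counts, so no counting interval could be given. Replicates were biological, per the study's methods. The Runx1 ChIP-seq and input libraries were not analysed here.

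Peaks of the 9 libraries with an overlap of 1 bp or more were joined to intervals in Python 3.11.15, numpy 2.4.6 and pandas 2.3.3, and the step was tested on simulated data. Open means that a peak of the library covered 1 bp or more. Genes were those of GENCODE M21, without the mitochondrial ones, and sequences came from GRCm38.p6. Motif shares used the 71396 nuclear intervals whose central 200 bp held no unknown base. Where a library had several peaks in an interval, the highest score was used. Scores were ranked within each library, and mean ranks in NKT and ILCP were compared by exact permutation with Benjamini-Hochberg adjustment over 5 genes. The genes, their relatives and the motifs were chosen with earlier results of these data known. Genes named in the text were the 5, those overlapping their windows, the nearest on each side, listed relatives and the 2 most alike, of which a few are not reported here. Alternatives changed the peaks kept, the window, the definitions of open and shared, the assignment to genes, the rank measure and the libraries.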

Additional observations from a re-analysis of the deposited data

How the results depend on the processing

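The number of shared intervals at each gene changed with the peaks kept, the window and the gene model. With an equal number of highest-scoring peaks it was 0 at *Ptprj*, *Ccl28* and *Arl14ep* and 1 at *Fgfr2* and *Gpr151*. With the higher-scoring 50% of peaks it was 0 at *Ptprj*, *Fgfr2*, *Ccl28* and *Arl14ep* and 1 at *Gpr151*. Counting an interval as open in any replicate gave 5 at *Ptprj*. Assigning intervals to the nearest start site gave 0 at *Fgfr2*, as did the RefSeq gene body, an alternative chosen after seeing the data. With the gene body alone *Arl14ep* and *Gpr151* held 0, with an extension of 5 kb they held 1 each, and when a peak had to cover at least 50% of the interval *Gpr151* held 1. A peak midpoint in the interval is the same rule by construction, since every peak lies within its interval. Leaving out 1 library at a time gave 2 to 3 at *Arl14ep*, 3 to 4 at *Fgfr2*, 3 at *Ptprj* and 2 at *Ccl28* and *Gpr151*.

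The rank difference, NKT minus ILCP in percentage points, ranged with 1 library left out from 31.3 to 38.7 at *Ptprj*, 17.8 to 28.3 at *Ccl28*, -12.5 to 13.3 at *Fgfr2*, -3.12 to 5.63 at *Arl14ep* and -4.90 to 6.96 at *Gpr151*. It turned at *Fgfr2* without NKT replicate 2 (-1.56) or ILCP replicate 1 (-12.5), at *Arl14ep* without ILCP replicate 1 (-3.12) and at *Gpr151* without NKT replicate 1 (-4.90), and with the median over intervals at *Fgfr2* (-9.26). Peak width went the other way from rank at *Fgfr2*, *Ccl28*, *Arl14ep* and *Gpr151*, with NKT peaks wider by 125.5, 57.5, 14.5 and 198.5 bp. The cause was not tested. With equal numbers of peaks no rank difference could be had at *Ptprj*, *Ccl28* and *Arl14ep*, where no shared interval was left, and it was 6.26 at *Fgfr2* and 43.4 at *Gpr151*, each from 1 interval. Same-numbered NKT and ILCP libraries did not deviate together (correlation -0.0421 over 14092 intervals). This value cannot show whether they share a batch, which stays unknown. A replicate block left the differences at 35.0, 0.405, 23.0, 1.25 and 1.03 at *Ptprj*, *Fgfr2*, *Ccl28*, *Arl14ep* and *Gpr151*, with p of 0.5 at *Ptprj* and *Ccl28*, the smallest it can give, and 1 elsewhere (exact permutation). In all, 110 alternatives left the count within 1.5 times or the direction of the rank difference in place, 18 counts moved and 9 rank differences turned. The size of a rank difference was not judged, so 43.4 in place of 1.03 at *Gpr151* is among the 110. The midpoint rule and the replicate block, which cannot change the count or the difference, are also among them. The unknown depth of each library limits every absence of a peak.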
